A study of Mus musculus with 37 samples.

Results

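The kainate receptor genes (Grik1, Grik2, Grik3, Grik4 and Grik5), their auxiliary subunit genes (Neto1 and Neto2) and the delta receptor gene Grid1 were described in translating RNA of midbrain dopamine and GABA neurons. These 8 genes were taken by symbol from the 57180 genes of the deposited count tables, and all 8 had enough counts to be tested in every comparison. RNA bound to GFP-tagged ribosomes was pulled down from the ventral midbrain, which holds the substantia nigra and the ventral tegmental area, and sequenced as 1 library per mouse. DAT;NuTRAP mice (19 libraries, of which 10 young and 9 old) expressed the tag where Cre was driven by the dopamine transporter gene. VGAT;NuTRAP mice (18 libraries, 10 young and 8 old) expressed it where Cre was driven by the vesicular GABA transporter gene. In both models homozygous Cre males were mated with homozygous floxed NuTRAP females, so Cre and tag in each mouse are taken from the breeding. Only some litters were genotyped, and no library was labelled as a control without Cre. Young mice were 8 to 10.5 months old in DAT;NuTRAP and 7 to 9 months in VGAT;NuTRAP. Old mice were 21 months old, apart from 1 VGAT;NuTRAP female of 24 months, and both sexes entered every group. The questions were which of these receptor genes differ between the cell types and which differ with age.

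Kainate receptors are glutamate-gated cation channels built from 4 subunits. GluK1, GluK2 and GluK3 (genes Grik1, Grik2 and Grik3) can form channels on their own, while GluK4 and GluK5 (Grik4 and Grik5) bind the agonist with high affinity and need a partner from the first set. Neto1 and Neto2 are single-pass membrane proteins that join the channel and change its gating and its placement at synapses. GluD1 (Grid1) resembles these receptors in sequence but acts mainly as a synaptic organizer that binds cerebellins, which in turn bind presynaptic neurexins. Kainate receptors are known on both sides of the synapse, where they can carry current or adjust transmitter release.

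Libraries held 13841253 to 38235015 counts. The labels held for the marker genes: Slc6a3, the dopamine transporter, averaged 3277 ± 490 CPM (counts scaled to a common library total, mean ± SD) in DAT;NuTRAP and 797 ± 243 in VGAT;NuTRAP. Gad2, a GABA synthesis enzyme, averaged 141 ± 56.6 and 1447 ± 99.8 CPM, so each marker gene was still counted in the other model. Which cells this RNA came from was not tested. The summed CPM of the 8 oligodendrocyte markers was also higher in DAT;NuTRAP (508 to 2350) than in VGAT;NuTRAP (247 to 969), none of the 8 had a DAT;NuTRAP mean under 1 CPM, and 1 did in VGAT;NuTRAP. The 7 endothelial and mural markers summed to 138 ± 57.7 CPM (58.7 to 248) against 39.3 ± 9.72 (24.4 to 58.0), and the 10 astrocyte markers to 1434 ± 419 against 1024 ± 119. The part of these cells in the differences between the cell types was not tested. Each model was split over a first and a second batch (8 and 11 DAT;NuTRAP libraries, 6 and 12 VGAT;NuTRAP libraries). The second-batch DAT;NuTRAP libraries stood apart: they detected 14323 to 18170 genes against 18485 to 21803 in all the others, and their oligodendrocyte sum was 1634 ± 428 CPM against 628 ± 97.3 in the first batch. Values within each batch therefore stand beside the differences between cell types. The second old VGAT;NuTRAP male held 5.10 CPM of Xist, within the range of the females of that model (3.57 to 20.1), while its Ddx3y was at least 79.0 CPM like that of the other 6 males. Leaving this library out changed no call for any of the 8 genes. Cell type coincides with mouse line and count table, so these cannot be told apart.

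The members are spread over the genome (GRCm39 coordinates of whole genes, with the number of bases covered by annotated exons). Grik1 (ENSMUSG00000022935) lies at chr16:87692788-88087153 on the minus strand with 6721 exonic bases, and Grik2 (ENSMUSG00000056073) at chr10:48970929-49664880 on the minus strand with 16828. Grik3 (ENSMUSG00000001985) lies at chr4:125384202-125607966 on the plus strand with 10116 exonic bases. Grik4 (ENSMUSG00000032017, chr9:42429431-42856154) and Grik5 (ENSMUSG00000003378, chr7:24709269-24772708) lie on the minus strand with 9613 and 9300 exonic bases. Neto1 (ENSMUSG00000050321) has 11723 exonic bases, and Neto2 (ENSMUSG00000036902) lies on the minus strand at chr8:86363217-86429213 with 9031. Grid1 (ENSMUSG00000041078) lies at chr14:34541769-35305336 on the plus strand with 6258. Annotated antisense transcripts share 6.65% of the exonic bases of Neto1 (with Gm54041) and 6.25% of those of Neto2 (with Gm39214). The libraries kept strand, but the strand setting of the counting is not given in the sources used here, so antisense reads in these stretches cannot be told apart from those of the genes.

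To show how alike the 5 kainate subunits are at the channel itself, the stretch of coding sequence around the pore site is given for each. The capitals mark the CAG codon at the pore site. In GluK1 and GluK2 this codon is known to be recoded by adenosine deamination, which changes calcium permeability, and the enzymes that do this (Adar and Adarb1) are taken up with the partner genes.
Grik1: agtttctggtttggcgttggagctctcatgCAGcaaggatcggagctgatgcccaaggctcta
Grik2: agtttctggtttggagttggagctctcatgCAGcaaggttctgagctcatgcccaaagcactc
Grik3: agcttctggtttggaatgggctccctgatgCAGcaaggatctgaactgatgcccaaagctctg
Grik4: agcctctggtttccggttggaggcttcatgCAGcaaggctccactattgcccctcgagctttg
Grik5: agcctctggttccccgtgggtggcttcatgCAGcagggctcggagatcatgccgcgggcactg
Each line gives 63 bases of spliced coding sequence on the sense strand, with the marked codon at chr16:87737430-87737432 (Grik1), chr10:49120425-49120427 (Grik2), chr4:125585000-125585002 (Grik3), chr9:42458919-42458921 (Grik4) and chr7:24721922-24721924 (Grik5). The codon lies in coding exon 12 of 16 in Grik1, Grik2 and Grik3, where the stretch runs on into the next exon, and in coding exon 14 of 19 in Grik4 and Grik5. The genome holds CAG in all 5 genes. Grik1 and Grik2 share 56 of 63 bases (88.9%), Grik4 and Grik5 share 46 (73.0%), and pairs across the 2 sets share 38 to 44. Gene counts do not read the edited base, so the share of edited transcripts was not analysed here.

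Which subunits are abundant was read per exon length, since the genes differ in length (CPM per kb of annotated exon). In dopamine neurons Grik3 led with 25.6 ± 6.88 CPM per kb (SD, n = 19), followed by Grik5 with 16.4 ± 3.34 and Grid1 with 12.7 ± 1.45. Neto2 stood at 8.05 ± 2.11, Grik1 at 3.44 ± 0.995 and Grik4 at 3.08 ± 0.502 CPM per kb. Grik2 (1.15 ± 0.400) and Neto1 (0.743 ± 0.371) were lowest. In GABA neurons Grid1 led with 17.5 ± 1.04 CPM per kb (n = 18), followed by Grik3 with 16.0 ± 2.29, Grik5 with 13.001 ± 2.17 and Neto2 with 11.4 ± 1.47. The other 4 genes lay close together, from Grik2 at 4.24 ± 0.644 and Neto1 at 4.19 ± 0.759 to Grik4 at 3.67 ± 0.445 and Grik1 at 3.55 ± 0.541. Ranges over libraries overlapped for all neighbours in these orders except Grik4 over Grik2 in DAT;NuTRAP and Neto2 over Grik2 in VGAT;NuTRAP. Within single libraries Grik3 was above Grik5 in 15 of 19 DAT;NuTRAP and in 17 of 18 VGAT;NuTRAP libraries. With the length of the canonical transcript in place of all annotated exons, Grik5 came first in both cell types, at 32.1 ± 6.52 and 25.4 ± 4.25 CPM per kb, so the leading place of Grik3 or Grid1 depends on the length used.

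**Figure D1:**
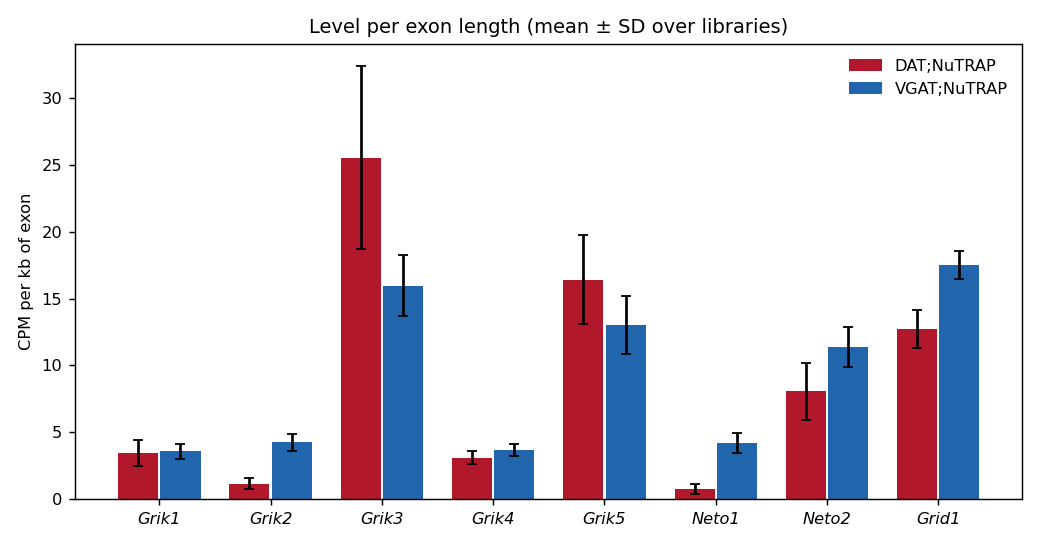
Mean level of each gene in CPM per kb of annotated exon (bars, error bars are SD over 19 DAT;NuTRAP and 18 VGAT;NuTRAP libraries). Grik3 and Grik5 are the highest kainate subunits in both cell types, and Grik2 and Neto1 are near the bottom in DAT;NuTRAP.

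GABA neurons carried far more Grik2 and Neto1 than dopamine neurons and less Grik3 and Grik5. Between the cell types 7 of the 8 genes passed the test (edgeR quasi-likelihood test, adjusted p below 0.05 over all genes), 5 of them higher and 2 lower in VGAT;NuTRAP. Of all 16898 genes tested 60.5% passed, 30.4% as higher and 30% as lower, so passing alone says little here and the sizes carry the description. The 8 genes had a median log2 difference of 0.35, against -0.01 for all genes. The same 7 genes passed in young mice (49.8% of all genes) and in old mice (46.8%).

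Grik2, a channel-forming subunit, ranged from 10.6 to 32.4 CPM with a median of 19.97 in the 19 DAT;NuTRAP libraries. In the 18 VGAT;NuTRAP libraries it ranged from 50.9 to 88.2 CPM with a median of 75.8. The highest dopamine neuron library thus lay below the lowest GABA neuron library. The log2 fold change (VGAT;NuTRAP over DAT;NuTRAP) was 1.93 ± 0.13 (SE, adjusted p = 1.72e-15), or 3.82-fold. It was 1.80 ± 0.18 in young and 2.06 ± 0.20 in old mice.

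Grik3, the channel-forming subunit with the most counts, went the other way. It ranged from 136 to 386 CPM (median 253) in DAT;NuTRAP and from 126 to 220 CPM (median 158) in VGAT;NuTRAP. The ranges overlapped, and the log2 fold change was -0.63 ± 0.10 (adjusted p = 1.61e-06), or 1.55-fold lower in GABA neurons. Grik1, the third channel-forming subunit, ranged from 10.3 to 40.3 CPM (median 22.7) in DAT;NuTRAP and from 17.7 to 30.8 CPM (median 23.9) in VGAT;NuTRAP. The GABA neuron range fell inside that of the dopamine neurons. Its log2 fold change of 0.02 ± 0.11 did not pass (adjusted p = 0.857), with a 95% interval of -0.19 to 0.24.

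The high-affinity subunits differed by smaller amounts and in opposite directions. Grik5 ranged from 83.9 to 206 CPM (median 142) in DAT;NuTRAP and from 68.2 to 150 CPM (median 126) in VGAT;NuTRAP, for a log2 difference of -0.38 ± 0.07 (adjusted p = 5.56e-06). Grik4 ranged from 23.0 to 39.4 CPM (median 29.0) and from 26.4 to 43.9 CPM (median 34.1), for a log2 difference of 0.24 ± 0.07 (adjusted p = 0.00231). Both ranges overlapped widely between the cell types. In young or old mice alone Grik4 was near the threshold (adjusted p = 0.0397 and 0.0328): it lost the call when any of 9 single libraries was left out in young mice (adjusted p up to 0.0930) and any of 4 in old mice (up to 0.0865).

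Of the auxiliary subunits, Neto1 gave the largest difference of the 8 genes. It ranged from 2.39 to 17.8 CPM (median 8.07) in DAT;NuTRAP, from raw counts of 88 to 408. In VGAT;NuTRAP it ranged from 33.1 to 61.6 CPM (median 51.2), with no overlap. The log2 fold change was 2.55 ± 0.20 (adjusted p = 5.89e-14), or 5.87-fold. Neto2 ranged from 44.9 to 111 CPM (median 71.9) in DAT;NuTRAP and from 75.7 to 133 CPM (median 102) in VGAT;NuTRAP, and the ranges overlapped. Its log2 fold change was 0.54 ± 0.09 (adjusted p = 2.10e-06). Both Neto genes were higher in GABA neurons, but the Neto2 difference was found in second-batch libraries and not in first-batch libraries alone, as described with the batches.

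Grid1, the delta receptor gene, gave a moderate and even difference. It ranged from 63.6 to 96.3 CPM (median 80.4) in DAT;NuTRAP and from 97.9 to 119 CPM (median 110) in VGAT;NuTRAP, without overlap. Its log2 fold change was 0.46 ± 0.05 (adjusted p = 5.82e-11), or 1.38-fold. Thus Grik2, Neto1 and Grid1 were the 3 members whose libraries did not overlap between the cell types, which held for 8.36% of all genes tested (4.99% with GABA neurons higher). Because these are pulldowns from tissue, fewer tagged cells that use a gene and less RNA per cell cannot be told apart.

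**Figure D2:**
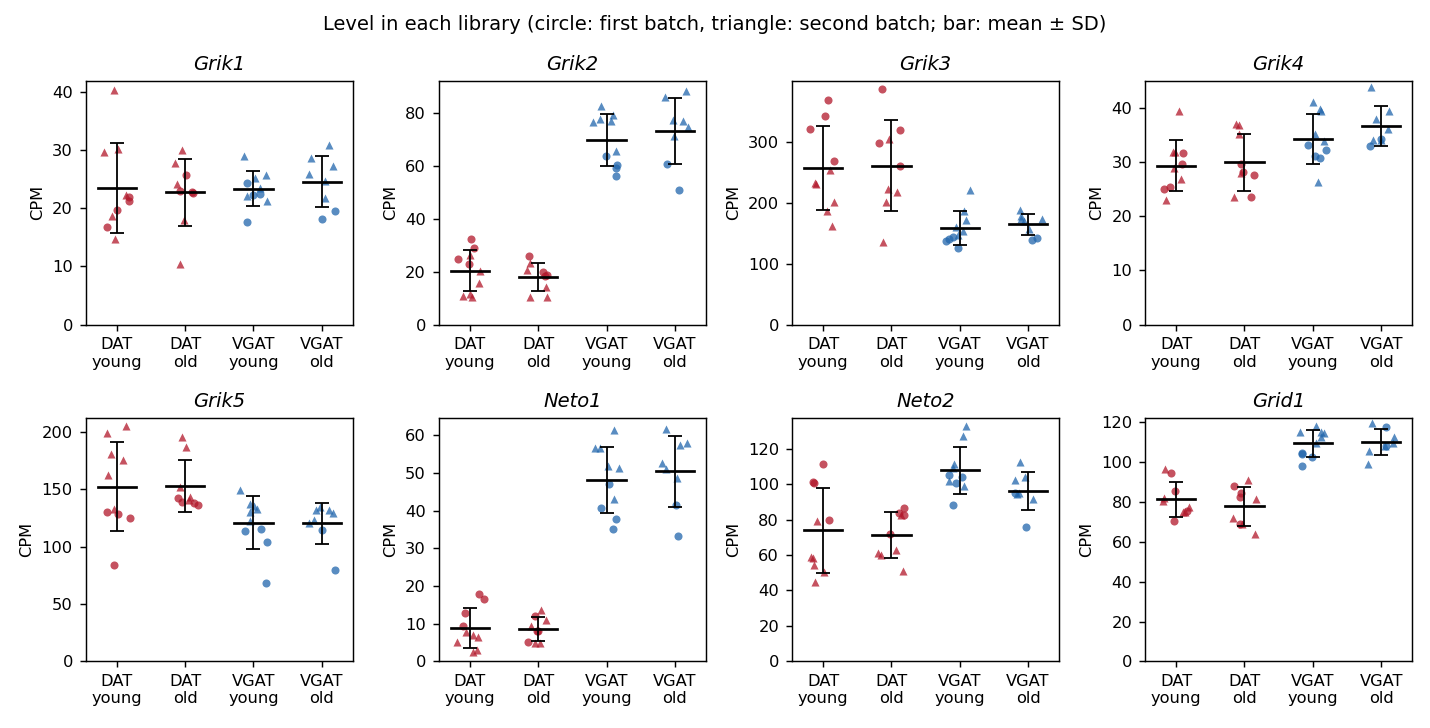
CPM of each gene (y axes, from 0) in each library by cell type and age, with circles for first-batch and triangles for second-batch libraries and black bars for mean ± SD. Grik2, Neto1 and Grid1 separate the cell types without overlap, while young and old libraries of one cell type overlap for every gene.

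The size of several of these differences changed with the batch label. For Grik2 the log2 fold change was 1.29 ± 0.09 in first-batch and 2.31 ± 0.15 in second-batch libraries, and for Neto1 1.84 ± 0.17 and 3.01 ± 0.19. Grik2 averaged 24.0 ± 5.02 CPM in first-batch and 15.9 ± 5.80 in second-batch DAT;NuTRAP libraries, against 58.5 ± 4.44 and 77.8 ± 6.01 in VGAT;NuTRAP. Grik3 gave -1.20 ± 0.09 and -0.29 ± 0.10, as it averaged 320 ± 45.0 and 214 ± 44.9 CPM in the batches of DAT;NuTRAP against 138 ± 6.40 and 173 ± 19.4 CPM in those of VGAT;NuTRAP. Neto2 gave 0.05 ± 0.08 in the first batch (adjusted p = 0.635), where DAT;NuTRAP libraries ranged from 71.9 to 111 CPM and VGAT;NuTRAP libraries from 75.7 to 105. In the second batch it gave 0.83 ± 0.08 (adjusted p = 2.04e-10), with 44.9 to 82.3 CPM against 91.3 to 133. Tested as an interaction, the cell type difference changed between the batch labels for Grik2, Grik3, Neto1 and Neto2 (adjusted p = 0.000171, 3.47e-06, 0.00514 and 1.53e-05), and 28.9% of all genes passed this test. With DESeq2 the same 4 genes passed, as did 5247 of 32230 genes (16.3%), against 4880 of 16898 (28.9%) with edgeR. The DESeq2 share is over every gene with any count, so these shares have unlike bases. Grik1, Grik4, Grik5 and Grid1 did not pass it (0.14 ± 0.22, -0.00 ± 0.14, -0.00 ± 0.14 and 0.13 ± 0.09 on the log2 scale). Second-batch DAT;NuTRAP libraries also held the higher oligodendrocyte sums given above and an astrocyte sum of 1669 ± 341 CPM against 1112 ± 282 in the first batch. In VGAT;NuTRAP the astrocyte sums were 1008 ± 68.1 and 1055 ± 190 CPM. Neuron marker sums of DAT;NuTRAP differed too, with GABA neuron markers at 735 ± 125 CPM in the second and 856 ± 73.0 in the first batch. Glutamate neuron markers summed to 80.8 ± 28.7 and 158 ± 64.0 CPM, and serotonin neuron markers went the other way (20.1 ± 11.9 and 8.47 ± 9.88). Dopamine neuron markers were alike (16135 ± 1893 and 16168 ± 1229). The part of these cells in the batch differences was not tested. The direction was the same in both batches for the 7 genes that passed, and with the exception of Neto2 each passed in each batch over both ages.

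**Figure D3:**
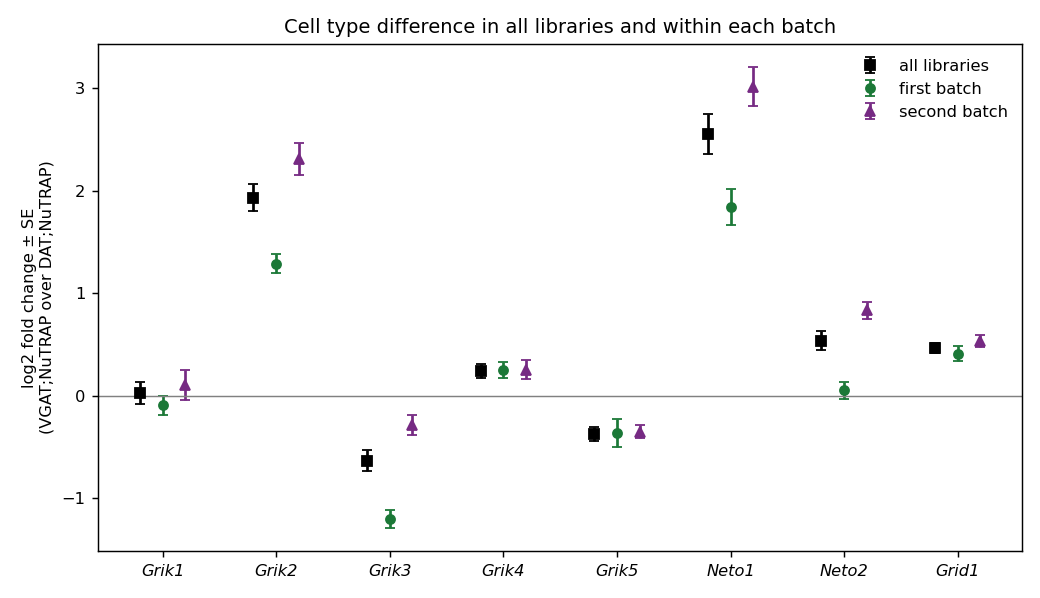
Log2 fold change of VGAT;NuTRAP over DAT;NuTRAP (y axis, error bars are SE) for each gene in all libraries and in each batch alone. Grik2, Grik3, Neto1 and Neto2 shift between the batches, whereas Grik1, Grik4, Grik5 and Grid1 did not pass the test of a batch difference.

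Subunit make-up was compared as the share of each kainate subunit in the sum of the 5, per annotated exon length. Grik3 made up 50.8% ± 9.08 (SD, n = 19) of the sum in DAT;NuTRAP and 39.5% ± 2.36 (n = 18) in VGAT;NuTRAP. Within the first batch the Grik3 shares were 59.6% ± 3.57 and 40.0% ± 3.31, and within the second 44.4% ± 5.70 and 39.2% ± 1.85. With canonical lengths the Grik3 shares over all libraries were 37.9% ± 8.57 and 27.8% ± 2.08. Those of Grik5 were then larger, at 43.9% ± 8.42 and 40.3% ± 3.17, so the leading share depends on the length used. Grik2 made up 2.33% ± 0.835 of the sum in DAT;NuTRAP and 10.5% ± 0.708 in VGAT;NuTRAP, with ranges of 1.25 to 3.98% and 9.15 to 11.7%. The Grik2 share was thus apart in the cell types within both batches. The high-affinity subunits Grik4 and Grik5 together took 39.8% ± 8.56 in DAT;NuTRAP and 41.2% ± 2.40 in VGAT;NuTRAP. That order turned with the batch, with 31.5% ± 3.17 and 40.8% ± 3.29 in the first and 45.9% ± 5.31 and 41.4% ± 1.957 in the second, and with canonical lengths (50.4% ± 8.63 and 49.4% ± 2.51 over all libraries). The ratio of Neto1 to Neto2 was 0.0918 ± 0.0396 in DAT;NuTRAP (0.0312 to 0.176) and 0.371 ± 0.0621 in VGAT;NuTRAP (0.258 to 0.504). These ratios also did not overlap, and they were 0.0965 and 0.320 in the first batch and 0.0884 and 0.396 in the second. Shares and ratios repeat the counts tested above and were given no test of their own.

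**Figure D4:**
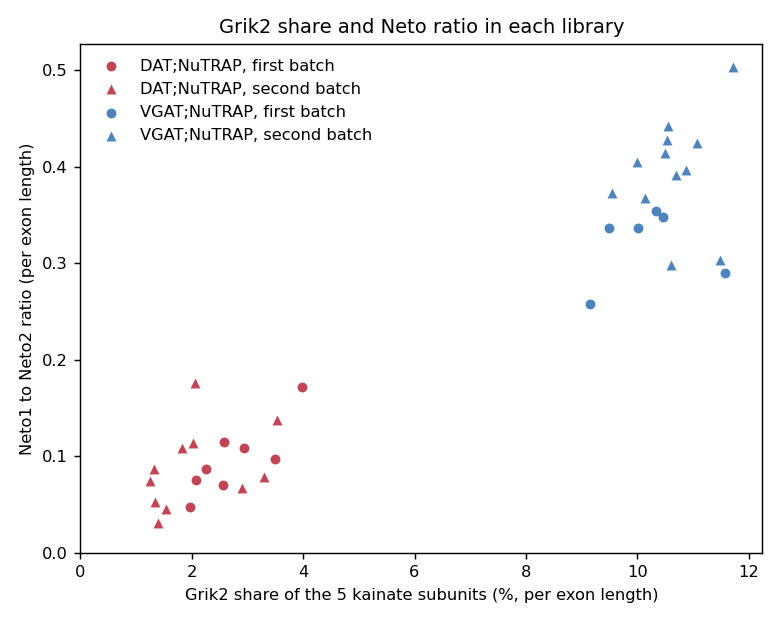
Share of Grik2 in the 5 kainate subunits (x axis, %) against the ratio of Neto1 to Neto2 (y axis), both per annotated exon length, 1 point per library. DAT;NuTRAP libraries lie at 1.25 to 3.98% and ratios of 0.0312 to 0.176, VGAT;NuTRAP libraries at 9.15 to 11.7% and 0.258 to 0.504.

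The AMPA and NMDA receptor subunit genes were mostly higher in GABA neurons as well. Of these 11 genes 10 were higher and 1 lower, and their median on the log2 scale was 0.72 against -0.01 for all genes, of which 60.5% were called and 30.4% higher. In young mice 9 were higher and 1 lower, and in old mice 7 were higher, 1 lower and 3 did not pass. Grin2c, an NMDA receptor subunit, was the lower one (-1.85 ± 0.12). The AMPA receptor subunit Gria4 gave 0.93 ± 0.07, and the NMDA receptor subunits Grin2a and Grin1 gave 0.98 ± 0.09 and 0.70 ± 0.07. Among 22 genes for ligands, adaptors and editing enzymes of kainate and delta receptors 10 were higher, 4 lower and 8 did not pass (median 0.17), a share near the 60.5% of all genes called. The deaminases Adarb1 and Adar, which recode glutamate receptor transcripts, were higher in GABA neurons, by 1.16 ± 0.06 and 0.94 ± 0.10. Adarb1 averaged 262 ± 48.9 CPM in DAT;NuTRAP and 573 ± 68.4 in VGAT;NuTRAP. In DAT;NuTRAP both enzymes also differed by batch, with Adar at 260 ± 27.6 CPM in the first and 127 ± 19.8 in the second batch, against 313 ± 38.7 and 317 ± 24.2 in VGAT;NuTRAP. Grip2 and Pick1, scaffold proteins with PDZ domains that bind glutamate receptors, were lower (-0.59 ± 0.06 and -0.92 ± 0.10).

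Age moved none of the 8 genes past the test in either cell type. In DAT;NuTRAP 0 of 8 passed (edgeR), where 0.00672% of all 14889 genes did, and 0 of 8 had an unadjusted p below 0.05 (5.28% of all genes). In VGAT;NuTRAP 0 of 8 passed, where 0.0256% of all 15607 genes did, and 1 of 8 had an unadjusted p below 0.05 (5.98% of all genes). DESeq2 also called 0 of 8 in each (0.0675% of 28143 and 0.0969% of 29938 genes with any count, a wider set than with edgeR). The median log2 fold change of the 8 genes (old over young) was -0.01 in DAT;NuTRAP and 0.00 in VGAT;NuTRAP.

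Neto2 in GABA neurons was the one with the low unadjusted p. It ranged from 88.4 to 133 CPM (median 105) in 10 young and from 75.7 to 113 CPM (median 94.95) in 8 old VGAT;NuTRAP libraries, and the ranges overlapped. Its log2 fold change was -0.19 ± 0.06 (adjusted p = 0.654), with a 95% interval of -0.31 to -0.07. Without each library in turn it was -0.22 to -0.16. In DAT;NuTRAP Neto2 gave -0.04 ± 0.10 (71.3 ± 12.99 CPM in old and 74.0 ± 24.0 in young).

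For the channel-forming subunits the age differences were small against their errors. For Grik2 the log2 fold change was -0.17 ± 0.18 in dopamine and 0.01 ± 0.06 in GABA neurons, and Grik3 gave -0.00 ± 0.11 and 0.01 ± 0.06. Grik1 gave -0.03 ± 0.18 and 0.02 ± 0.08. The high-affinity subunit Grik4 gave 0.03 ± 0.11 and 0.07 ± 0.07, and Grik5 gave 0.04 ± 0.09 and -0.06 ± 0.08. Neto1 gave 0.11 ± 0.29 and -0.00 ± 0.07, and Grid1 gave -0.07 ± 0.08 and 0.00 ± 0.04. The precision differed between the models: for Neto1 the 95% interval ran from -0.47 to 0.68 in DAT;NuTRAP and from -0.15 to 0.14 in VGAT;NuTRAP, and for Grid1 from -0.23 to 0.09 and from -0.09 to 0.09. The DAT;NuTRAP values also depended on the batch. Neto1 averaged 14.1 ± 3.88 CPM in young and 8.38 ± 2.86 in old mice of the first batch (log2 fold change -0.76 ± 0.26, adjusted p = 0.327), but 5.31 ± 2.18 and 8.75 ± 3.88 CPM in the second (0.73 ± 0.43, adjusted p = 0.928). Single-batch values had opposite signs in DAT;NuTRAP for all 8 genes except Grid1, and none of them passed. In VGAT;NuTRAP the signs differed for Grik1, Grik2, Neto1 and Grid1. Neto2 gave -0.22 ± 0.12 in the first and -0.18 ± 0.07 in the second batch. The first batch held only 2 old VGAT;NuTRAP libraries, 1 of them from the female of 24 months. With DESeq2 the difference in age effect between the cell types passed for 0 of 8 genes (0.0155% of genes with any count). With edgeR it also passed for 0 of 8 (0% of all genes). At the same time 0 of 8 had an unadjusted p below 0.05, against 2.76% of all genes, and Grik2 had the largest value of the 8, 0.26 ± 0.26. In the same libraries the astrocyte marker sum averaged 1287 ± 303 CPM in young and 1598 ± 483 in old DAT;NuTRAP, and the microglia marker sum 54.8 ± 11.02 and 81.1 ± 28.4. The ranges of both sums overlapped between the ages, and the part of these cells in the age values was not tested. None of the AMPA and NMDA receptor subunit genes passed with age (10 tested in DAT;NuTRAP, 11 in VGAT;NuTRAP), and neither did any of the 22 partner genes. In each of these lists at most 1 gene had an unadjusted p below 0.05 in either model (Grin2c, 0.27 ± 0.12 in DAT;NuTRAP, and Adarb1, -0.14 ± 0.06 in VGAT;NuTRAP).

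**Figure D5:**
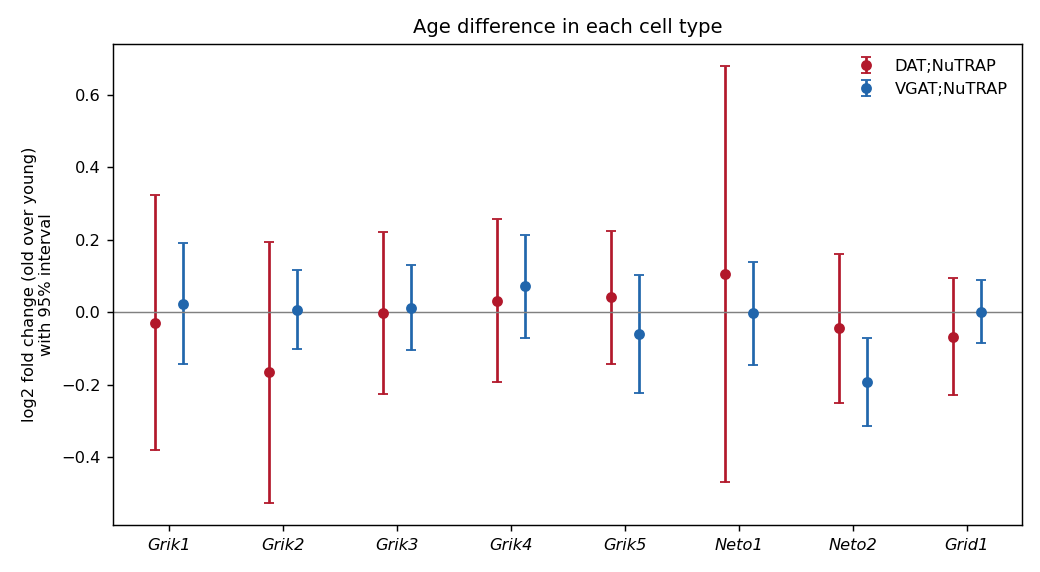
Log2 fold change of old over young (y axis) for each gene in DAT;NuTRAP and VGAT;NuTRAP libraries, with 95% intervals as error bars. The intervals span 0 for all genes except Neto2 in VGAT;NuTRAP (-0.31 to -0.07), whose adjusted p was 0.654.

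Within the sexes the age comparisons again called 0 of 8 genes (edgeR) in DAT;NuTRAP females, DAT;NuTRAP males, VGAT;NuTRAP females and VGAT;NuTRAP males, against 0%, 0%, 0.032% and 0.0315% of all genes. DESeq2 called 0 of 8 in each, against 1.29%, 0.0758%, 0.4% and 0.0501% of genes with any count. At an unadjusted p below 0.05 stood Grid1 in DAT;NuTRAP females, Grik1 in DAT;NuTRAP males, Neto2 in VGAT;NuTRAP males and no gene in VGAT;NuTRAP females, against 4.05%, 5.5%, 5.12% and 5.59% of all genes. The Grik1 values had opposite signs in the sexes of DAT;NuTRAP. In females it stood at 21.3, 16.7, 40.3, 30.2 and 29.6 CPM in young and at 22.7, 10.3, 18.01 and 27.8 CPM in old mice. In males it stood at 19.7, 21.9, 18.6, 14.7 and 22.2 CPM in young and at 22.8, 25.7, 22.9, 30.1 and 24.2 CPM in old mice. The lowest old male (22.8 CPM) lay just above the highest young male (22.2 CPM), while the females overlapped. Grik1 was not alone in this. Ages were also apart for Grid1 in DAT;NuTRAP females (old up to 72.0 CPM, young from 74.7). The same held for Neto2 in VGAT;NuTRAP males (old up to 94.96 CPM, young from 98.7). The share of all genes whose ages were apart in this way was not counted. For Grik1 in DAT;NuTRAP the log2 fold change was -0.49 ± 0.28 in females (adjusted p = 1.00) and 0.38 ± 0.15 in males (adjusted p = 0.904). The difference between the sexes, 0.89 ± 0.33, did not pass either (adjusted p = 1.00). Grid1 gave -0.27 ± 0.12 in females and 0.08 ± 0.10 in males of the same model, a difference of 0.36 ± 0.15 (adjusted p = 1.00). The interaction of age with sex called 0 of 8 genes in each model with DESeq2 (0.579% of genes with any count in DAT;NuTRAP and 0.384% in VGAT;NuTRAP). With edgeR it also called 0 of 8 in each (0% of all genes). Unadjusted, 2 of 8 were below 0.05 in DAT;NuTRAP (4.25% of all genes) and 0 of 8 in VGAT;NuTRAP (5.09%). The paper reports Grik2 as lower with age in DAT;NuTRAP males, at a looser threshold and after its own gene removal and batch correction. Here Grik2 gave 0.06 ± 0.24 in males and -0.49 ± 0.27 in females of that model, and neither passed.

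How the members varied from mouse to mouse was described by the correlation of log2(CPM + 1) over the 37 libraries, after subtracting the mean of each combination of model, age and batch. Libraries share depth and dissection, so these values are descriptions without a test. Grik2 and Neto1 had the highest value among the pairs of members (r = 0.60), followed by Neto1 and Grid1 (r = 0.51) and Grik1 and Grid1 (r = 0.48). The lowest was Grik4 and Neto2 (r = -0.44). Over 12765 genes compared, those most like Grik2 were Negr1 (r = 0.78) and Arhgef26 (r = 0.75), and those most like Neto1 were Zfp536 (r = 0.78) and Rasgrf1 (r = 0.78). Grik5 was most like Rbck1 (r = 0.88) and Jph3 (r = 0.85), and Grik3 was like Ankrd52 (r = 0.74). For Grik1 the nearest were Dnajc24 (r = 0.80) and Mettl6 (r = 0.77), for Grik4 Recql5 (r = 0.76) and Cdk5rap3 (r = 0.70), for Neto2 Cxxc1 (r = 0.70) and Bcl2 (r = 0.68), and for Grid1 Tmem163 (r = 0.71) and Kdr (r = 0.71).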

How the data were processed

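Reads of the GFP-bound fraction were aligned by the authors (STAR 2.7.10b, build mm39), and featureCounts gave a count per gene, with strand setting and annotation not given in the sources used here. The deposited values are raw counts, in 1 table per model. The members and gene lists were chosen with earlier results of these data known.

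Genes passing filterByExpr (minimum count 10) were tested with the edgeR 4.0.16 quasi-likelihood test (TMM factors, robust fit, batch as a term) in R 4.3.3. Cell types were compared in 1 fit over 37 libraries and ages within each model. The fit over 37 libraries had 1 batch term shared by both models, which takes the batch effect as equal in them. For 28.9% of genes the test of cell type by batch passed, so this did not hold for all genes. P-values were adjusted by Benjamini-Hochberg over all genes tested, and genes were called at an adjusted p below 0.05. DESeq2, run as an alternative, kept every gene with any count, so its shares of genes called have a larger base than those of edgeR. Any gene that DESeq2 left without an adjusted p counted as not called and stayed in that base. CPM used TMM factors over all libraries. Intervals are 1.96 SE on either side. Lengths, positions and sequences came from GENCODE on GRCm39. Named besides the 8 members were at most 4 genes per list and comparison with the smallest p, the 2 genes most alike to each member among properly named tested genes averaging at least 1 CPM, and label genes. Some genes that this rule or the lists held are not reported here.

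None of the 70 pairs of libraries within a group agreed within sampling noise (lowest chi-square per degree of freedom 5.46). Depth ranged from 13841253 to 38235015 counts, and each member had at least 88 counts in every library. Alternatives were DESeq2 1.42.0, RLE factors, no or a stricter count filter (30), no batch term, batch nested in model, sex as a covariate, single batches, a replicate block and leaving out each library. The cell type by batch interaction, the canonical lengths and the comparison of library ranges were added after the data were seen. The tests were tried on simulated data. The authors' removal of glial genes and batch correction came after these tables and were not applied, and input fractions were not used here.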

Additional observations from a re-analysis of the deposited data

Results flagged for a closer look

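Within groups of 4 to 6 libraries of one model, age and sex, 4 of 56 combinations of gene and group held a library far from its group, where chance flags about 1 in 20. Grik3 stood at 386 CPM in the first old DAT;NuTRAP female, against 201 to 222 in the other 3, which were all second-batch libraries. Grik5 stood at 187 CPM in the fourth old DAT;NuTRAP female (137 to 143 in the others) and at 196 CPM in the fifth old DAT;NuTRAP male (138 to 152 in the others). Neto1 stood at 9.27 CPM in the second old DAT;NuTRAP female, against 4.83 to 5.20 in the others.

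Tested as an interaction, the log2 fold change of VGAT;NuTRAP over DAT;NuTRAP was higher in the second than in the first batch for 4 genes. The shift was 1.02 ± 0.21 for Grik2, 0.91 ± 0.14 for Grik3, 1.18 ± 0.33 for Neto1 and 0.76 ± 0.13 for Neto2. Grik3 was lower in VGAT;NuTRAP in both batches, so its difference became smaller in the second. With DESeq2 the same 4 of the 8 genes passed. Whether a batch label marks the same handling in both models is not given in the sources used here.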

How the results depend on the processing

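Over 2800 values of single members under alternatives, none of the calls reversed and 29 calls were lost; no member gained a call, and no member was called with age under any alternative. Values that passed in neither setting changed sign in 177 cases. In first-batch libraries alone 4 members passed between the cell types in young mice and 4 in old mice (5373 and 4651 of all genes). With all libraries 7 and 7 passed (8407 and 7907 of all genes), so Grik4, Grik5 and Neto2 were lost. The first batch held fewer libraries: 4 young of each model, 4 old DAT;NuTRAP and 2 old VGAT;NuTRAP. Over both ages Grik4 and Grik5 passed in each batch. In second-batch libraries alone Grik3 (-0.26 in young, -0.31 in old) and Grik4 were lost. In young mice Grik4 also lost its call with DESeq2 (adjusted p = 0.0523), RLE factors (0.0582), the stricter filter (0.0554) and no batch term (0.0579). It was further lost without young DAT;NuTRAP males 1, 3 or 5, female 1, young VGAT;NuTRAP males 1, 2 or 4, or females 2 or 4. In old mice it was lost without old DAT;NuTRAP females 2 or 3, VGAT;NuTRAP male 3 or female 3. Leaving out single libraries left 6 to 7 members called in young and in old mice.

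Few genes were called with age, and their number moved with the setting. In DAT;NuTRAP edgeR called 1 gene, DESeq2 19, first-batch libraries alone 4, and single libraries left out 0 to 2. In VGAT;NuTRAP edgeR called 4, DESeq2 29, no count filter 9, no batch term 1, sex as a covariate 8, first-batch libraries 0 and second-batch libraries 52, with 2 to 7 when single libraries were left out. DESeq2 and no count filter gave 314 and 39 in DAT;NuTRAP females (0 with the edgeR fit, 0 to 9 with libraries left out) and 20 and 106 in DAT;NuTRAP males (0, and 0 to 1). They gave 113 and 56 in VGAT;NuTRAP females (5, 2 without a batch term, and 4 to 20) and 13 and 80 in VGAT;NuTRAP males (5, 0 without a batch term, and 0 to 4). For age by cell type DESeq2 called 5 and first-batch libraries 1 (0, and 0 to 1), and for age by sex DESeq2 and no count filter called 163 and 33 in DAT;NuTRAP and 115 and 63 in VGAT;NuTRAP (0 in each).

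Mice were not treated as paired by replicate number in the main fits. Of 17 same-numbered pairs of young and old libraries 11 had deviations that correlated above 0.1 (range -0.33 to 0.57). In 4 pairs the best match was the library of the same number. Batch was not removed from these deviations, so this check cannot tell pairing from a shared batch. All 11 were among the 13 pairs within 1 batch, and every pair across batches had a negative value. With the replicate block 7 genes passed with age in VGAT;NuTRAP, and Neto2 between the cell types in old mice had an adjusted p of 0.0606, the one call of the 8 genes that it changed. The interactions were not fitted with this block. The block moved the median of all genes between the cell types to 0.11.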
